A study of Mus musculus with 8 samples.

Results

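The immunoglobulin heavy variable segments are the rows of the expression table whose gene symbol begins with Ighv. There were 113 of them among the 37979 genes listed. Every row with such a symbol was taken, whatever its level, although earlier results of these data were known. Bulk RNAseq had been carried out on mural cells of mouse skeletal muscle, in 4 libraries of pericytes and 4 of SMCs, each numbered 1 to 4. All libraries came from hindlimb muscle of Ai14+/−;SM22α-Cre+ mice of both sexes, 3 to 4 months old, in which Cre under the SM22α promoter turns on tdTomato. Pericytes were sorted as PDGFRβ+tdTomato− cells and SMCs as PDGFRβ+tdTomato+ cells, after exclusion of dead cells and of cells positive for CD31 or for the leukocyte marker CD45. Each library was made from about 60000 cells combined from several sorts, so single animals cannot be followed, and tests measure the spread between these pooled samples. Cells of the SMC lineage that escaped recombination would lack tdTomato and fall in the pericyte gate. Pdgfrb, the receptor used for sorting, was at 3.21 to 17.6 FPKM in pericytes and 15.6 to 91.5 FPKM in SMCs. Of 7 mural cell markers 0 were called higher in either group by the test described below. They leaned to SMCs, with a median log2 fold change of -1.34.

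A heavy chain variable region is assembled in developing B cells, when 1 of many V segments in the heavy chain locus is joined to a D and a J segment. The V segment brings its own promoter, with an octamer motif bound by Oct factors, and a recombination signal at its far end, a heptamer and a nonamer that guide the cut. A B cell and its descendants, plasma cells among them, therefore transcribe mainly the V segment that was joined, and the spread of V segments in a sample reflects which clones gave RNA to it. The families, given by the number before the hyphen, group segments of similar sequence.

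All 113 segments lay on the minus strand of chr12:114812453-117238672 in NCBI Build 37, a stretch of 2426 kb that begins above Ighm, the gene of the IgM constant region, at chr12:114659078-114660941. The annotation (GENCODE version 1 for mouse) called 109 of them V genes, 2 pseudogenes and 2 protein coding, and 79 had the usual pair of exons, a short leader exon and the V exon. They fell into 16 families, of which family 1 held 56 segments. Exons summed to a median of 348 bases. In a window from 250 bases before to 50 bases after the annotated start, the octamer ATGCAAAT (reverse complement ATTTGCAT, both strands searched) was found in 87 of 113 segments (77.0%), in every case on the strand of the gene, against 848 of 37308 genes in all (2.27%). The heptamer of V promoters, CTCATGA (reverse complement TCATGAG, no overlap with the octamer), was in 26 segments (23%) and in 1093 genes (2.93%), and 23 segments held both. Of the 113 gene models, 70 began with ATG, and for the others the window may not sit at the true start.

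The windows of 3 segments that led a library or ranked high in all pericyte libraries show how these promoters differ, with the octamer and the start codon in capitals, read 5′ to 3′ on the minus strand. The Ighv3-6 window is chr12:115526744-115527043 and that of Ighv5-9-1 is chr12:114974732-114975031. That of Ighv1-26, at chr12:116026967-116027266, lacks the exact 8 letters, which is no measure of whether a factor binds there.
Ighv3-6 window: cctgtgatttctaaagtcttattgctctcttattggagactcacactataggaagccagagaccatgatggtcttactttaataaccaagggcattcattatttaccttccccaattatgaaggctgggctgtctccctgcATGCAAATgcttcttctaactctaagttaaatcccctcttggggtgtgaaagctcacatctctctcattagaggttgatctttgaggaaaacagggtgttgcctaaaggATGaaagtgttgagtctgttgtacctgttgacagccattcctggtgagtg
Ighv5-9-1 window: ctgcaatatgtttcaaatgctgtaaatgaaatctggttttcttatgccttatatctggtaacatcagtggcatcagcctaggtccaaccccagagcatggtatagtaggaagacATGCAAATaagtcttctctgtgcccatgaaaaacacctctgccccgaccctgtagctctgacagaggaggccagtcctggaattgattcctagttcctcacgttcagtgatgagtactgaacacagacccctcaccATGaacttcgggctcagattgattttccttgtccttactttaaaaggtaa
Ighv1-26 window: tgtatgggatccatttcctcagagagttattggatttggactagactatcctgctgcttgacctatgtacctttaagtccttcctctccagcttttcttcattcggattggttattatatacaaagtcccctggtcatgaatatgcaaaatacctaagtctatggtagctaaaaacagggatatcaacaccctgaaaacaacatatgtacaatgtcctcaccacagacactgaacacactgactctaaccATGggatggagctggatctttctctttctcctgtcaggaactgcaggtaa

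At the other end, the recombination heptamer CACAGTG (read on the strand of the gene only) followed directly on 71 segments and began 1 to 20 bases further on in 7. The other 35 had no exact match within 20 bases. A nonamer with at least 7 of the 9 letters of ACAAAAACC stood 23 bases after the heptamer in 23 segments and matched exactly in 2. The bases that follow 5 segments named below are given with capitals for the heptamer and for the 9 bases after a spacer of 23 bases. They lie at chr12:115526324-115526362, chr12:116026544-116026582, chr12:116996156-116996194, chr12:115097321-115097359 and chr12:115391352-115391394 in that order. The 9 bases are marked whatever their match to the nonamer. They held 8 of its 9 letters in Ighv3-6, Ighv5-17 and Ighv7-3, 6 in Ighv1-72 and 5 in Ighv1-26. Other spacings were not searched.
Ighv3-6 signal: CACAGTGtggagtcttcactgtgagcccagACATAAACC
Ighv1-26 signal: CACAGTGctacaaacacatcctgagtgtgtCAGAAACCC
Ighv1-72 signal: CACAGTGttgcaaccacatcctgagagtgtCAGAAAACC
Ighv5-17 signal: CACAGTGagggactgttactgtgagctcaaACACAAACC
Ighv7-3 signal: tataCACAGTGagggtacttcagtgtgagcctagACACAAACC

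Values are FPKM, which scales the fragments of a gene by its length and by the size of the library. FPKM over all genes summed to between 656405 and 1190435 per library. Low values on segments of 351 bases were whole multiples of a step of 0.353 to 0.448 FPKM, taken as the worth of a single fragment. All 56 values of up to 10 steps lay within 0.05 of a whole number, although the step itself was set on these values. The step grew faster than length shrank: a fragment was worth 1.98 times as much FPKM on segments of 291 bases as on that of 360, whose lengths differ 1.24-fold. FPKM therefore weighs fragments on short segments more, and levels of segments that differ in length are compared here with that limit. With the step read at each length, the Ighv segments held an estimated 7200, 8071, 6746 and 24582 fragments in pericytes 1 to 4 and 187, 145, 143 and 432 in SMCs 1 to 4. A gene listed at 0 may also be a failed estimate, and the fibroblast gene Dcn was listed at 0 in all SMC libraries.

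Ighv transcripts made up far more of the pericyte libraries than of the SMC libraries. The summed FPKM was 3238, 4008, 2818 and 9781 in pericytes 1 to 4. In SMCs 1 to 4 it was 100.1, 55.6, 54.5 and 176.8. The groups did not overlap, the lowest pericyte library lay 15.9-fold above the highest SMC library, and the means of 4961 ± 3251 and 96.7 ± 57.4 (SD, n = 4) differed 51.3-fold. As a share of all FPKM, Ighv segments took 0.469%, 0.337%, 0.392% and 1.25% in pericytes and 0.0136%, 0.00847%, 0.00778% and 0.0253% in SMCs. Pericyte 4 stood above the other pericyte libraries on both measures, and without it the pericyte share fell from 0.612% to 0.399%. In bulk RNA, fewer cells of a type and less RNA per cell cannot be told apart.

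Of the 113 segments, 101 were above 0 in at least 1 library and were tested, and 12 were listed at 0 throughout. Those 12 included all 5 segments annotated with fewer than 200 bases of exon. The thresholds were those of the study, a log2 fold change above 2 and q below 0.05. They were applied here to limma on log2(FPKM + 1) over 27414 genes. By this test 63 segments were higher in pericytes, where 3.24% of all genes were called in that direction. None was higher in SMCs, where 2.66% of all genes were called, and 0 reached an unadjusted p of 0.05 in that direction. The fitted log2 fold changes of the 63 ran from 2.08 to 7.45, with a median of 4.23. Those of 7 segments listed at 0 in all SMC libraries depend on the pseudocount and are no measure of a fold. Over all 101 tested segments the median log2 fold change was 3.48, against 0.02 over all genes. For 72 segments the lowest pericyte value exceeded the highest SMC value, which held for 12.1% of all genes tested. The pericyte mean was the higher for 99 of the 101. The other 2 were Ighv1-24, which was at 0.732 and 0.617 FPKM in SMCs 1 and 2 and listed at 0 in the other libraries, and Ighv1-83, at 0.756 FPKM in pericyte 1 and 0.760 FPKM in SMC 1 only. With each library scaled to the same sum (TPM), 65 and 0 segments were called, while the calls over all genes went from 888 higher in pericytes and 728 higher in SMCs to 822 and 1019 of 27414.

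**Figure D1:**
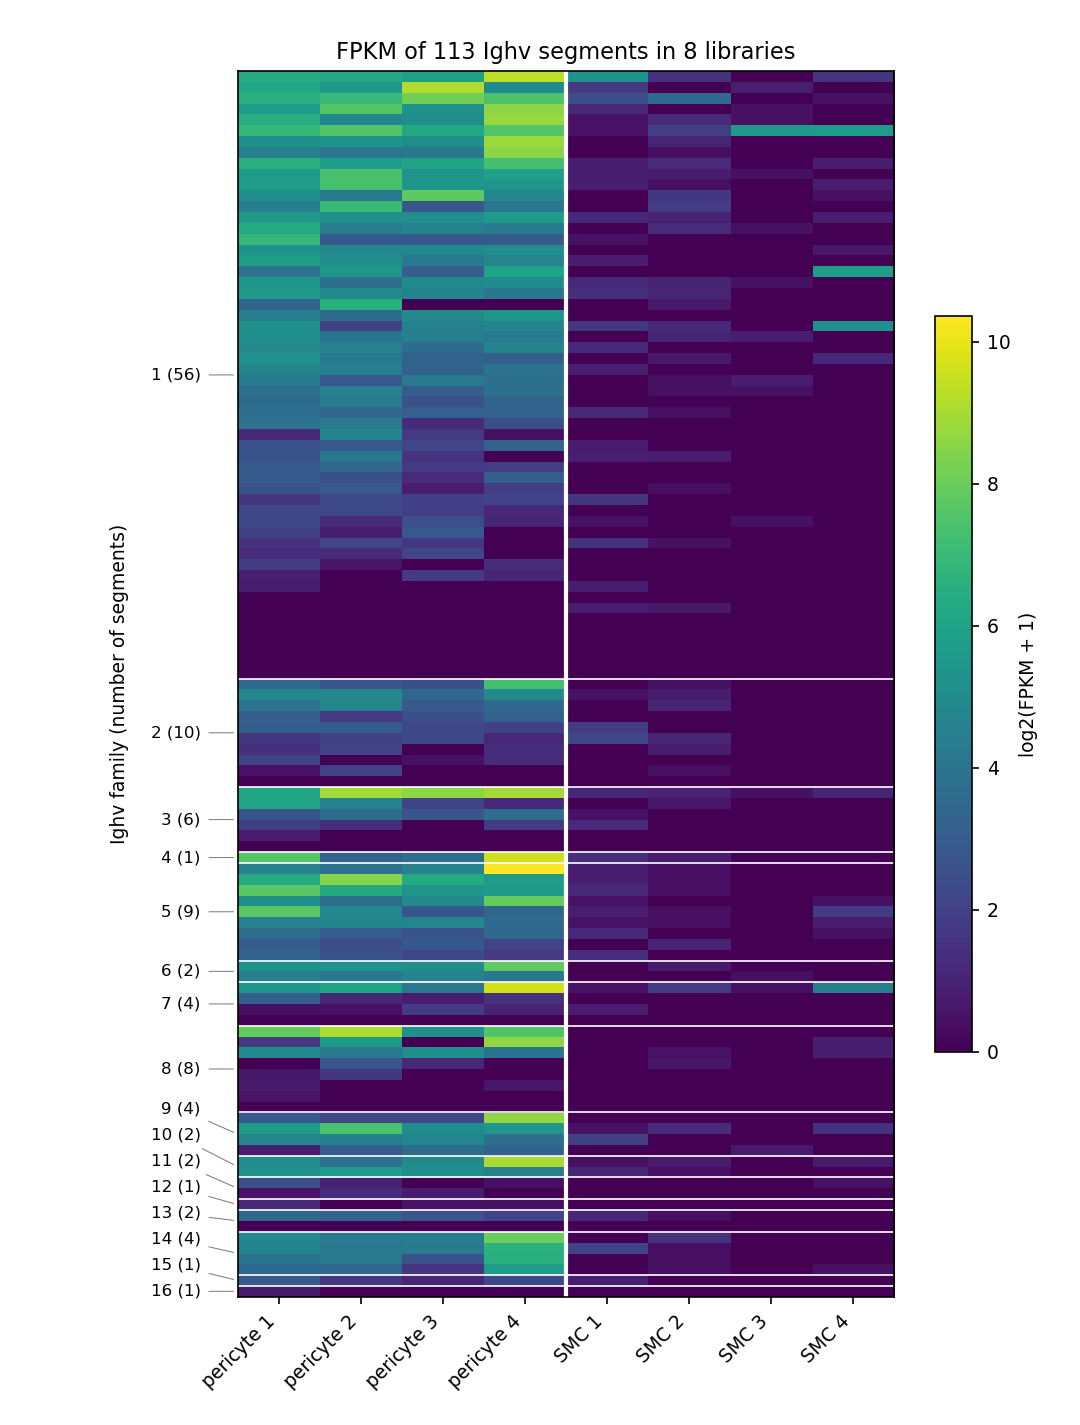
Level of each of the 113 segments (rows, by family and falling pericyte mean) in the 8 libraries (columns), as log2(FPKM + 1) in colour. In the 4 pericyte columns 78 segments were above 0 in each, and 39 were at 10 FPKM or more in each. The SMC columns hold a few isolated bright cells.

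More segments were detected in pericytes. There were 99, 92, 87 and 87 segments above 0 in pericytes 1 to 4 and 49, 53, 15 and 23 in SMCs 1 to 4. At 10 FPKM or more there were 58, 56, 43 and 54 segments in pericytes and 1, 1, 1 and 4 in SMCs. In all, 78 segments were above 0 in every pericyte library and 39 were at 10 FPKM or more in each of them. By contrast, only Ighv3-6, Ighv7-3 and Ighv1-72 were above 0 in every SMC library, although 78 were above 0 in at least 1. The number of fragments limits these counts. Thinned to 143 fragments, the pericyte libraries would be expected to show 49.3, 41.3, 39.6 and 32.7 segments and the SMC libraries 44.7, 52.7, 15 and 14. These values for SMCs 1 and 2 lay within or above the range of pericytes, and those for SMCs 3 and 4 below it. Thinning covers counting error only, since fragments of amplified cDNA are not independent molecules.

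Evenness was read from the effective number of segments, the exponential of the Shannon entropy of the FPKM shares, which equals the number of segments if all are alike. It was 48.8, 32.5, 26.97 and 26.9 in pericytes 1 to 4 and 17.4, 33.5, 2.01 and 5.89 in SMCs 1 to 4. Pericyte 1 was the most even pericyte library, and the SMC libraries ranged from values like those of pericytes to a signal that was nearly all 1 segment. The segment that led a library was Ighv8-12 in pericyte 1 (7.41% of Ighv FPKM) and in pericyte 2 (13.7%), Ighv1-15 in pericyte 3 (19.6%) and Ighv5-9-1 in pericyte 4 (13.4%). In SMCs it was Ighv1-82 (40.2%), Ighv1-26 (19.0%), Ighv1-72 (87.5%) and Ighv1-66 (30.5%). By estimated fragments the leader was another segment in pericytes 1 and 2 and the same one in the other 6 libraries. Ighv5-9 led pericyte 1, with 521 of 7200 fragments (7.23%) against 425 (5.91%) for Ighv8-12. Ighv3-6 led pericyte 2, with 1080 of 8071 fragments (13.4%) against 888 (11.0%) for Ighv8-12. A total of 50% of the Ighv FPKM was reached with 13, 7, 4 and 7 segments in pericytes and with 4, 10, 1 and 2 in SMCs.

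**Figure D2:**
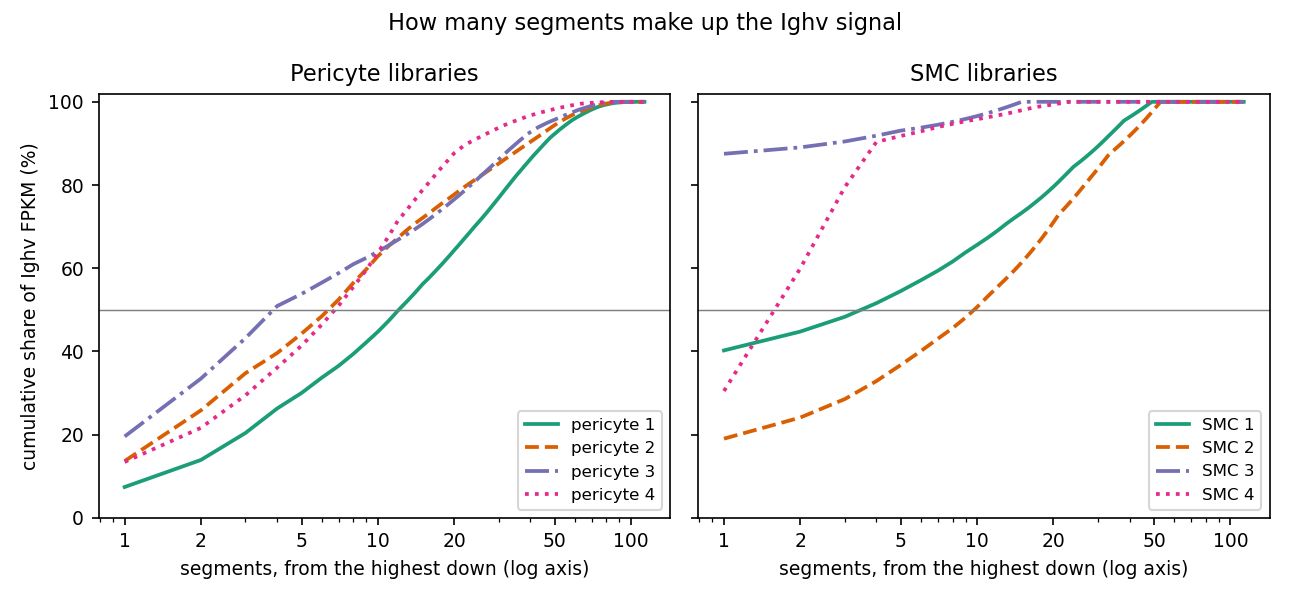
Cumulative share of Ighv FPKM (vertical axis, percent) against the number of segments taken from the highest down (horizontal log axis), 1 line for each library. The grey line marks 50%, which SMC 3 passes with its first segment, at 87.5%, and pericyte 1 with 13.

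Family 1, the largest, gave 48.6%, 44.6%, 64.2% and 35.3% of Ighv FPKM in pericytes 1 to 4, a mean of 48.2 ± 12.1% (SD, n = 4), and it holds 49.6% of the segments. In SMCs it gave 69.9%, 65.6%, 96.7% and 83.4%. The families' order therefore changed between pericyte libraries, but family 1 came first in each library. Of its 56 segments 32 were called higher in pericytes. The leader of family 1 was a different segment in each pericyte library: Ighv1-72 in 1, Ighv1-55 in 2, Ighv1-15 in 3 and Ighv1-82 in 4. By estimated fragments the leader in pericyte 4 was Ighv1-50 (1177 fragments, against 989 for Ighv1-82), and the others were the same.

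Family 5, with 9 segments, was the next in mean share, at 18.8%, 13.3%, 7.88% and 17.3% in pericytes 1 to 4. All 9 were above 0 in every pericyte library and all 9 were called higher in pericytes. Which member led varied, with Ighv5-9 in pericyte 1, Ighv5-4 in pericytes 2 and 3, and Ighv5-9-1 in pericyte 4, where it held 77.7% of the family. Family 3 (6 segments, 2 called) took 4.44%, 13.1%, 14.2% and 5.19%, and in pericytes 2 to 4 a single segment, Ighv3-6, held 93.0%, 97.7% and 96.8% of it. Family 8 (8 segments, 2 called) took 8.53%, 15.5%, 2.58% and 6.17%. Ighv8-12 led it in pericytes 1 to 3, and Ighv8-5 led it in pericyte 4 with 66.2%. By estimated fragments, family 8 took 6.98%, 12.7%, 2.20% and 5.48%, and in pericyte 3 Ighv8-8 (79 fragments) came before Ighv8-12 (67).

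The smaller families differed in how many members were called. Both segments of family 6, both of family 10, all 4 of family 14 and 3 of the 4 of family 9 were higher in pericytes. So were 5 of the 10 of family 2, the lone segment of family 4 and 1 of the 2 of family 13. The segment of family 4, Ighv4-1, was at 190.4, 8.59, 12.2 and 765.5 FPKM in pericytes 1 to 4 (q = 0.0314). Its call was lost under 6 of 14 alternatives, with q up to 0.0793. No segment was called in families 7, 11, 12, 15 and 16. Family 7 was not low in pericytes: Ighv7-3 was at 43.3, 63.9, 16.8 and 803 FPKM in pericytes 1 to 4 and at 0.401, 2.41, 0.369 and 19.2 FPKM in SMCs, with a log2 fold change of 4.56 ± 1.36 (SE) and q = 0.0519. The others of these families were low throughout. Ighv11-2 was at 4.85, 0.882, 0 and 0.367 FPKM in pericytes, Ighv12-3 at 1.26, 0, 0.401 and 0.382 FPKM, and Ighv16-1 at 0.686 FPKM in pericyte 1 alone. Ighv15-2, at 6.57, 2.24, 1.17 and 3.73 FPKM in pericytes and 0.823 FPKM in SMC 1 only, had q = 0.0187 but a log2 fold change of 1.78. Of the 2 annotated pseudogenes, Ighv13-2 was higher in pericytes, at 11.0, 8.97, 5.59 and 3.20 FPKM against 1.18, 0.336, 0 and 0 FPKM in SMCs (log2 fold change 2.54 ± 0.39, q = 0.00358), and Ighv1-33 was listed at 0 in all libraries.

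**Figure D3:**
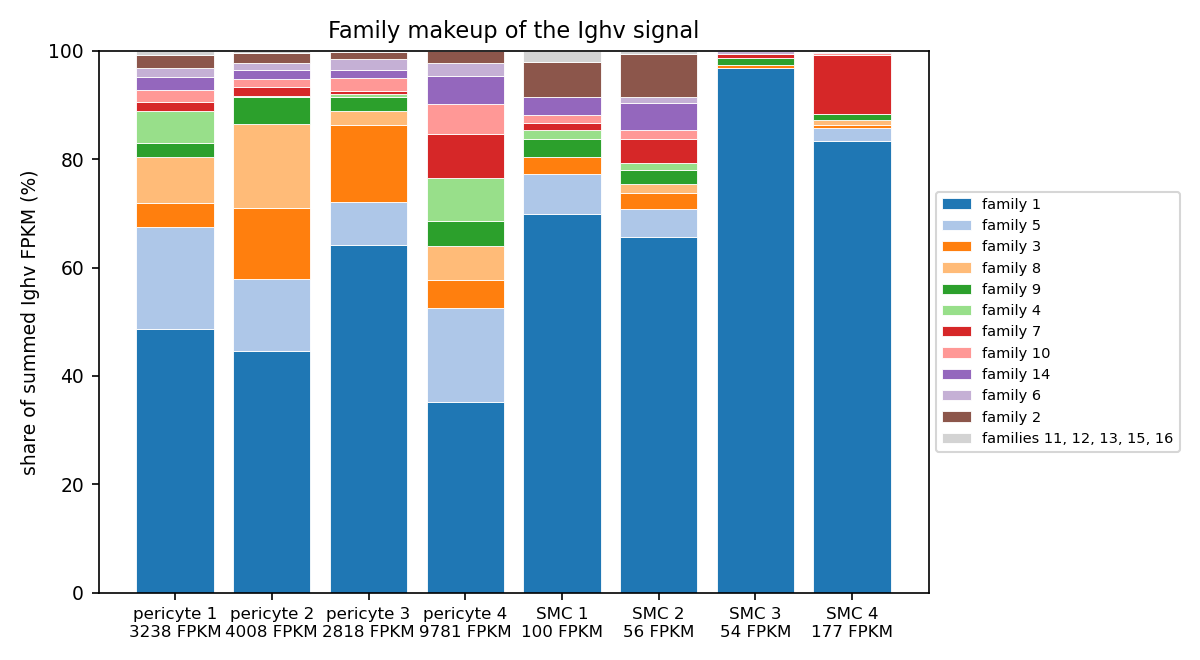
Share of summed Ighv FPKM (vertical axis, percent) by family in each library, with the summed FPKM under each bar. Family 1 is the largest block in all 8 bars, at 35.3% in pericyte 4 and 96.7% in SMC 3, and the order of the other families differs between pericyte libraries.

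Ighv3-6 (ENSMUSG00000076672) had the highest mean FPKM in pericytes. It was at 67.1, 488, 392 and 491 FPKM in pericytes 1 to 4 and at 1.24, 1.07, 0.381 and 1.12 FPKM in SMCs 1 to 4. Pericyte 1 was low among the pericytes, and the groups were far apart (log2 fold change 7.21 ± 0.65 SE, q = 3.18e-04). The last 300 bases of its V exon, at chr12:115526363-115526662, are given because it was the highest segment in mean FPKM, beside those of Ighv5-9-1, at chr12:114974322-114974621, which had the highest single value.
Ighv3-6 V exon: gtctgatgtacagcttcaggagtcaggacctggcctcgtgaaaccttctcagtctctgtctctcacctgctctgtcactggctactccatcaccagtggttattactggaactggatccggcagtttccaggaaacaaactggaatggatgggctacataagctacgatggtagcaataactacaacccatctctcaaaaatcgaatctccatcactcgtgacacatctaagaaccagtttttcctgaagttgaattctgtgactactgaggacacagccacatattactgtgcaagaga
Ighv5-9-1 V exon: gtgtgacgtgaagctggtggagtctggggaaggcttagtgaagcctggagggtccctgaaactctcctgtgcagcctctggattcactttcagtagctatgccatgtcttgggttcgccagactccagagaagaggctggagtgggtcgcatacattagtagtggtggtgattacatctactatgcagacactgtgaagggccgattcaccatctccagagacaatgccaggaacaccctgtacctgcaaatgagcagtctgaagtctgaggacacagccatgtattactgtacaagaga

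Ighv8-12 was above 0 in the pericyte libraries only. It was at 239.9, 547, 36.1 and 188.5 FPKM in pericytes 1 to 4 and listed at 0 in every SMC library, so no fold is given (q = 5.11e-04). It was 1 of 7 called segments at 0 in all SMCs. Ighv1-26 was at 89.9, 130.4, 274.2 and 175.6 FPKM in pericytes and at 4.53, 10.6, 0 and 0.372 FPKM in SMCs (log2 fold change 5.67 ± 0.82, q = 0.00271). It was high in all pericyte libraries and was the segment that led SMC 2. Ighv1-64 was at 92.8, 53.3, 64.9 and 154.7 FPKM in pericytes and 0.823, 1.41, 0 and 0.743 FPKM in SMCs (log2 fold change 5.68 ± 0.39, q = 1.02e-04).

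The level of many segments depended on 1 library. Of 50 segments with a pericyte mean of at least 20 FPKM, 24 had more than 60% of their summed pericyte FPKM in a single library. That library was pericyte 4 for 16 of them, pericyte 1 for 3, pericyte 2 for 3 and pericyte 3 for 2. Ighv5-9-1 was at 22.4, 14.01, 23.7 and 1313 FPKM in pericytes 1 to 4 and at 0.830, 0.355, 0 and 0 FPKM in SMCs, so that pericytes 1 to 3 were alike and pericyte 4 was far above them (log2 fold change 5.53 ± 1.39, q = 0.0275). The call was lost when any 1 of the SMC libraries was left out (q = 0.0551 to 0.0696). Ighv9-2 was at 6.31, 3.68, 3.61 and 399 FPKM in pericytes and listed at 0 in SMCs, and did not pass the test with all libraries (q = 0.0947). Without pericyte 4 it was called (q = 4.37e-04).

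Single segments stood out in the other pericyte libraries too. Ighv1-58 was at 117.9 FPKM in pericyte 1 and at 6.12, 6.17 and 6.66 FPKM in pericytes 2 to 4. Ighv5-9 was at 210.4 FPKM in pericyte 1 and at 27.8, 5.77 and 9.90 FPKM in the other pericytes. Ighv5-4 was at 358.1 FPKM in pericyte 2 against 82.4, 82.3 and 49.9 FPKM in pericytes 1, 3 and 4. Ighv1-15 was at 551.2 FPKM in pericyte 3 against 70.6, 45.7 and 29.3 FPKM in pericytes 1, 2 and 4, and Ighv1-69 at 217.4 FPKM against 35.8, 18.4 and 27.1 FPKM. Each of these 5 was called higher in pericytes. The calls of Ighv1-58 and Ighv5-9 were lost without any 1 of the SMC libraries (q = 0.0518 to 0.0648 and 0.0544 to 0.0950), and that of Ighv5-9 also without pericyte 2 (q = 0.0704).

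Other segments were nearly level across the pericyte libraries. Among the 48 segments of at least 20 FPKM on average that were above 0 in every pericyte library, the highest library exceeded the lowest by 1.29-fold to 111-fold, with a median of 7.25-fold. Ighv1-76 was at 38.6, 30.0, 29.9 and 34.7 FPKM in pericytes and at 0, 0, 0 and 0.652 FPKM in SMCs (log2 fold change 4.91 ± 0.19, q = 1.23e-05). Ighv1-53 was at 46.4, 35.9, 32.5 and 52.6 FPKM in pericytes and at 1.23, 1.06, 0 and 0.743 FPKM in SMCs (log2 fold change 4.64 ± 0.28, q = 6.18e-05). These were picked after their values were seen, as the most level members. They lay far below the leaders of each library, which changed from library to library: 26 segments were among the first 10 of some pericyte library, and 0 were among the first 10 of all 4.

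**Figure D4:**
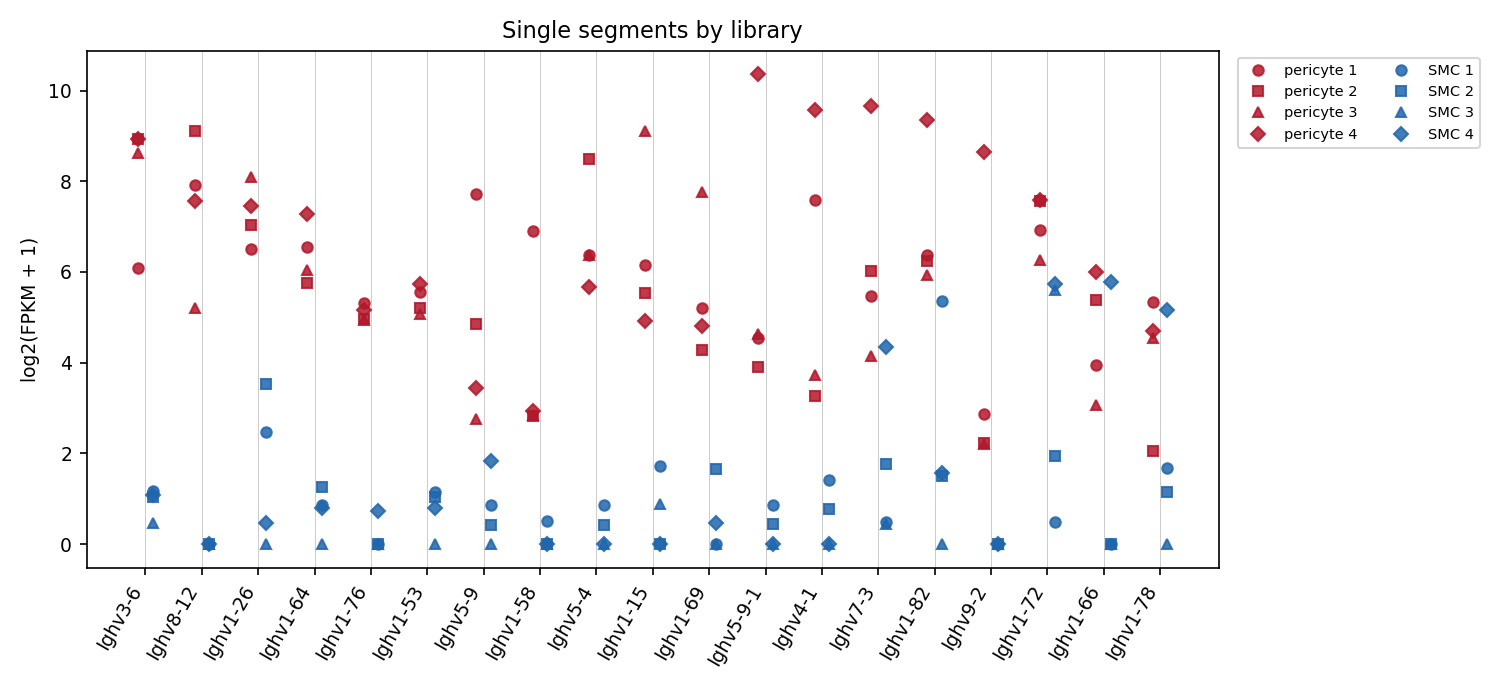
log2(FPKM + 1) of single segments (horizontal axis) in each pericyte library (red) and each SMC library (blue), with the replicate number given by the marker's shape. Ighv5-9-1 and Ighv9-2 are raised in pericyte 4, Ighv1-15 in pericyte 3 and Ighv5-9 in pericyte 1, Ighv1-76 and Ighv1-53 are level, and the blue markers of Ighv1-72, Ighv1-66 and Ighv1-78 reach into or near the pericyte range.

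In the SMC libraries 7 values of 6 segments reached 10 FPKM. Ighv1-72 (ENSMUSG00000076732) was at 121.5, 187.8, 75.9 and 192.7 FPKM in pericytes 1 to 4 and at 0.411, 2.82, 47.7 and 52.03 FPKM in SMCs 1 to 4. It was high in SMCs 3 and 4 only, below each pericyte library, and did not pass the test (log2 fold change 3.65 ± 1.24, q = 0.0804). Ighv1-66 was at 53.9 FPKM in SMC 4 and listed at 0 in SMCs 1 to 3, against 14.4, 40.8, 7.43 and 62.6 FPKM in pericytes, and the groups overlapped (q = 0.190). Ighv1-78 was at 34.6 FPKM in SMC 4, against 39.3, 3.16, 22.2 and 24.9 FPKM in pericytes (q = 0.289). Without SMC 4 both were called higher in pericytes (q = 0.00705 and q = 0.0476). Ighv1-82 was at 40.3 FPKM in SMC 1 and at 1.85, 0 and 1.96 FPKM in SMCs 2 to 4, against 81.6, 74.2, 60.4 and 649 FPKM in pericytes. It was called (log2 fold change 4.86 ± 1.27, q = 0.0322), but not without pericyte 1, 3 or 4 or without SMC 2, 3 or 4 (q = 0.0546 to 0.0803). The remaining values of 10 FPKM or more in SMCs were those of Ighv1-26 in SMC 2 and Ighv7-3 in SMC 4.

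Near-identical segments could share reads, and the counting rule for such reads is not given in the sources used here. The identity of a segment to its nearest other had a median of 93.5% and was at least 95% for 46 segments. Ighv1-62-2 and Ighv1-71 were identical and both listed at 0. Ighv1-72 and Ighv1-62-3 were 99.1% identical, and of the 75-base words of Ighv1-72 only 28.2% were found in no other segment. Ighv1-62-3 was at 0.821, 0, 2.35 and 1.12 FPKM in pericytes and listed at 0 in all SMC libraries, so the values of the pair are uncertain. Their V exons differ at 3 of 305 bases, which are in capitals in the last 300 bases of each, at chr12:116996195-116996494 and chr12:116699210-116699509.
Ighv1-72 V exon: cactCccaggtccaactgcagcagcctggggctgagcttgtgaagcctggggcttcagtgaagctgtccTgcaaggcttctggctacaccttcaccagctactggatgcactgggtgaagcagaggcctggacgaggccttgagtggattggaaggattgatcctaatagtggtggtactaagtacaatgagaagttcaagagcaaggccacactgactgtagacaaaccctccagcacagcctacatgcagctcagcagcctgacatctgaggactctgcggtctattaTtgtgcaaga
Ighv1-62-3 V exon: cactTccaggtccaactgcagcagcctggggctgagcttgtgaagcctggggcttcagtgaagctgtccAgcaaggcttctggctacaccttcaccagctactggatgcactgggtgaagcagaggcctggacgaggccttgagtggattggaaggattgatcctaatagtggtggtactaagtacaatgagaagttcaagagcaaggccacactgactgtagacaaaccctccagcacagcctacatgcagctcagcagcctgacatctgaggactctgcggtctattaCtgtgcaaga

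Levels were related across libraries more closely among pericytes than among SMCs. Over the 101 segments above 0 in some library, Pearson's r of log2(FPKM + 1) was 0.661 to 0.798 for the 6 pairs of pericyte libraries (mean 0.731; Spearman's rho 0.696 to 0.847). It was -0.0126 to 0.471 for the 6 pairs of SMC libraries (mean 0.238). Between a pericyte and an SMC library of the same number the mean was 0.329, and 0.298 for those of different number. These are descriptions over segments that are not independent, share genomic sequence and, in SMCs, rest on few fragments. The first 10 segments of pericyte libraries 2 and 3 had 6 in common, while those of pericytes 2 and 4 had 1.

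Position in the locus was also compared, counting from the end near Ighm. The first 28 segments, at chr12:114812453-115286915, gave 30.6%, 16.8%, 10.4% and 28.8% of Ighv FPKM in pericytes 1 to 4. The last 29, at chr12:116550377-117238672, gave 32.9%, 31.1%, 24.1% and 15.3% in pericytes and 51.2%, 27.3%, 92.4% and 82.0% in SMCs. Segments called higher in pericytes were spread along the whole locus, 17 of the first 28, 16 of the next 28, 16 of the next 28 and 14 of the last 29. No stretch led in all pericyte libraries: the last led in pericyte 1, the second in pericytes 2 and 4 (31.6% and 30.8%) and the third in pericyte 3 (40.02%). By estimated fragments the first stretch led in pericyte 1, with 32.5% against 30.9% for the last, and the leading stretches of the other pericyte libraries were the same.

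**Figure D5:**
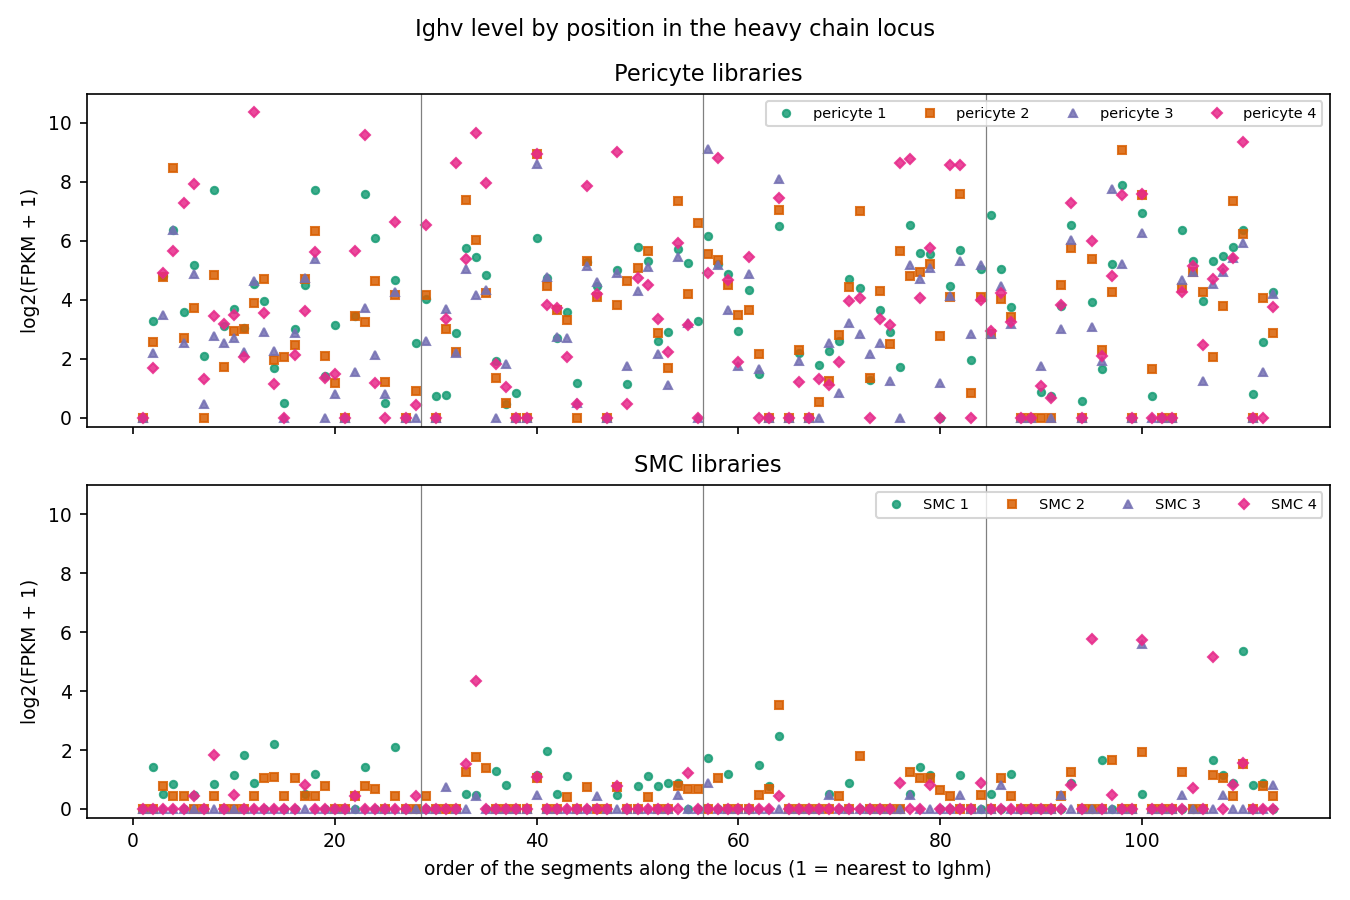
log2(FPKM + 1) of each segment in pericyte libraries (upper panel) and SMC libraries (lower panel) against its order along the locus from the end near Ighm, with grey lines at the borders of these stretches. In pericytes, high and low segments alternate along the locus, and the 4 highest values in SMCs, those of Ighv1-66, Ighv1-72 in SMCs 3 and 4, and Ighv1-82, lie in the last stretch.

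Sequence features were set beside the levels, with no test. Of the 87 segments with the octamer, 65 (74.7%) were above 0 in every pericyte library and 54 were called, with a median of 20.9 FPKM for their pericyte means. Of the 26 without it, 13 (50%) were above 0 in every pericyte library and 9 were called, with a median of 2.51 FPKM. Segments with the octamer gave 85.6% to 92.7% of the Ighv FPKM in pericytes. Of the 78 with an exact recombination heptamer within 20 bases, 62 (79.5%) were above 0 in every pericyte library, against 16 of the other 35 (45.7%). Of the 70 models that began with ATG, 59 (84.3%) were above 0 in every pericyte library, against 19 of the other 43 (44.2%). The features overlap among the segments, so their parts cannot be told apart.

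Most other genes of the B cell pathway were higher in pericytes as well. Of a list of 49 genes, 45 were listed and 41 tested, and 28 were called higher in pericytes and 0 in SMCs, where 3.24% and 2.66% of all genes were called. Among those not called, Cd81 and Xbp1 had q below 0.05 with a higher level in SMCs. Among the constant regions 6 of 8 were called. Ighm was at 1344, 1108, 880.2 and 1354 FPKM in pericytes 1 to 4 and at 58.0, 36.2, 16.1 and 68.0 FPKM in SMCs (log2 fold change 4.85 ± 0.43, q = 3.15e-04). Igkc, the kappa light chain constant region, was at 10736, 27602, 7411 and 20893 FPKM in pericytes and at 178.9, 332.4, 182.6 and 400.9 FPKM in SMCs (log2 fold change 5.83 ± 0.48, q = 2.31e-04). The 103 kappa variable segments summed to 8611, 20092, 5809 and 13866 FPKM in pericytes and 140.9, 233.1, 149.4 and 249.3 FPKM in SMCs. The kappa sum was thus highest in pericyte 2, and the Ighv sum in pericyte 4.

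Class-switched constant regions differed between pericyte libraries. Ighg1, a constant region of IgG, was at 3.07, 95.2, 107.6 and 1094 FPKM in pericytes 1 to 4, Ighg2c at 42.4, 142.0, 2.05 and 484.2 FPKM, and Ighg3 at 0.339, 1.32, 0.326 and 371.9 FPKM. These 3 made up 3.29%, 17.7%, 11.1% and 59.0% of their sum with Ighm. Pericyte 4 was therefore the highest for all 3, as it was for 24 of the 50 Ighv segments of at least 20 FPKM. Igj, the joining chain of secreted IgM and IgA, was at 68.4, 338.9, 107.1 and 492.5 FPKM in pericytes and at 3.10, 8.86, 4.90 and 21.5 FPKM in SMCs (log2 fold change 4.46 ± 0.78, q = 0.00623). It was 1 of 6 plasma cell genes, of which 3 were called. The others called were Mzb1, at 41.5 to 155.8 FPKM in pericytes and 0.183 to 3.30 FPKM in SMCs (q = 8.14e-04), and the transcription factor Irf4, at 12.8 to 20.9 FPKM and 0.830 to 1.53 FPKM (q = 5.46e-05). Sdc1 and Prdm1, which cells other than plasma cells also use, overlapped between the groups (q of 0.735 or more). Xbp1, the remaining gene, was higher in SMCs, at 249.1 to 358.0 FPKM against 156.0 to 218.4 FPKM in pericytes. Its log2 fold change was -0.597 (q = 0.0304), short of the threshold. The J segments of the heavy chain, 4 in all, were listed at 0 in all libraries.

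Among receptors and coreceptors 8 of 9 were called. Cd79a, a signalling chain of the B cell receptor, was at 671.4, 1145, 478.1 and 415.2 FPKM in pericytes and at 15.5, 13.7, 4.08 and 4.30 FPKM in SMCs (log2 fold change 6.12 ± 0.51, q = 2.49e-04). Unlike the Ighv sum, it was not highest in pericyte 4. The exception was Cd81, which many cell types express, at 236.1 to 610.3 FPKM in pericytes and 1299 to 1774 FPKM in SMCs (log2 fold change -1.98 ± 0.28, q = 0.00241). Of 5 signalling genes 4 were called, and Lyn, which other leukocytes use too, had a log2 fold change of 1.61. Of 5 transcription factors 3 were called and 4 had q below 0.05 with a higher level in pericytes, so not all of them went this way. Their median log2 fold change was 2.31. Among those called was Pou2af1, the coactivator of Oct factors at octamers. It was at 29.7, 30.0, 24.9 and 25.8 FPKM in pericytes and 0.197 to 1.13 FPKM in SMCs (log2 fold change 4.10 ± 0.20, q = 2.58e-05).

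Genes of the surrogate light chain and of segment joining were also detected. Of 4 surrogate light chain genes, which pair with the heavy chain in precursor B cells, 3 were called. Igll1 was at 149.0, 315.2, 18.2 and 46.6 FPKM in pericytes and at 12.8, 13.5, 0.0887 and 1.74 FPKM in SMCs (log2 fold change 4.04 ± 1.17, q = 0.0468). In both groups libraries 1 and 2 were above libraries 3 and 4. Dntt, the polymerase that adds bases at V, D and J joints, was at 17.4, 18.9, 9.02 and 17.0 FPKM in pericytes and 0.0218 to 0.810 FPKM in SMCs (log2 fold change 3.48 ± 0.27, q = 1.72e-04). Rag1, of the recombinase, was at 0.206 to 0.578 FPKM in pericytes and 0.0249 to 0.1199 FPKM in SMCs, with q = 0.0272 and a log2 fold change of 0.36. Which cell type gave the Dntt and Rag1 transcripts was not tested.

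Among markers of other cell types, Ptprc and those of T cells were higher in pericytes, while those of macrophages were not called and those of endothelial cells were called only in the other direction. Ptprc, which encodes CD45, was at 202.4, 80.6, 230.3 and 188.7 FPKM in pericytes and at 4.34, 9.15, 7.26 and 11.9 FPKM in SMCs, and was called higher in pericytes (log2 fold change 4.24 ± 0.40, q = 4.00e-04). All 6 of the T cell markers were called higher in pericytes, with a sum of 1555 to 2467 FPKM in pericytes and 26.1 to 39.8 FPKM in SMCs, and none of them was at 0 in any library. Of 4 macrophage markers 0 were called, with sums of 871.9 to 1889 FPKM and 1023 to 1625 FPKM. Of these 1, Emr1, had q below 0.05 with a higher level in SMCs. It was at 4.55 to 11.6 FPKM in pericytes and 10.8 to 16.2 FPKM in SMCs (log2 fold change -0.921, q = 0.0437). Of 4 endothelial markers 2 were higher in SMCs, with sums of 31.5 to 77.2 FPKM and 145.3 to 485.7 FPKM. Of 4 fibroblast markers 3 were higher in SMCs and 1, Dcn, in pericytes. The 7 mural cell markers summed to 565.9 to 1842 FPKM in pericytes and 1716 to 5433 FPKM in SMCs. The part of leukocytes among the sorted cells in the Ighv values was not tested.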

How the data were processed

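RNA was amplified with SMART-Seq v4 and libraries were built with Nextera XT. Per the labels and the study's methods, the authors used FastQC, Bowtie2 and TopHat with NCBI Build 37 and an Ensembl annotation, and deposited FPKM per gene without counts. The program that computed FPKM and the use of strand are not given in the sources used here. Labels gave each library its group and number, and all 8 were used.

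The test was limma's moderated test (version 3.58.1, R 4.3.3) on log2(FPKM + 1), with Benjamini-Hochberg adjustment over the 27414 genes above 0 in at least 1 library, two-sided. As in the study, a call needed a log2 fold change above 2 and q below 0.05. Fold changes are on this scale, which understates the change of low genes. Run on simulated data with 27414 genes, the test called 194 of the 200 that had been given a log2 change of 4, and 0 of the others.

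Gene positions and sequences came from GENCODE version 1 and the NCBIM37 genome. All 113 segments matched by gene identifier, as did 37195 of 37979 genes. No match to a segment was found in the RefSeq promoter table, and no proteins were used. Sequences were compared with edlib 1.3.9.post1. Evenness and agreement were computed in Python 3.11.15 (numpy 2.4.6, pandas 2.3.3, scipy 1.17.1), and figures were drawn with matplotlib 3.10.9. Fragment numbers are estimates from FPKM steps. A line of 1/step on length, set by the 9 lengths with at least 3 segments, gave each length's step, which low values refined by at most 1.32%. Only the length of Ighv8-12, 315 bases, had no low value, so its fragments rest on the line. Intervals of counting error were not computed from them.

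The members, gene lists and tests were chosen with earlier results of these data known. Segments were named by rule. The rule took the leader of each family, the 10 highest in pericytes, the 10 largest called changes and the first 3 of each library. It also took segments with overlapping groups among the 30 highest, and annotated pseudogenes. Segments with over 60% of their FPKM in 1 pericyte library were taken if their pericyte mean was at least 20 FPKM. Ighv1-53, Ighv1-76, Ighv1-62-2, Ighv1-62-3 and Ighv1-71 were added after their values were seen. In the B cell list, Ighd, Ighg2b, Igha and Iglc1 were not found by symbol, and Mzb1 was taken under an older symbol. The values of 2 genes of this list are not reported here. The alternatives tried were another pseudocount (0.1), keeping only genes that reached 1 FPKM in 4 libraries, TPM and quantile scaling, an intensity trend, the replicate block, each library left out, pseudogenes left out, values under 1 FPKM set to 0, shares of FPKM times length and the inverse Simpson index. Shares of estimated fragments were chosen after seeing the data.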

Additional observations from a re-analysis of the deposited data

Results flagged for a closer look

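In 28 of 57 groups of 4 libraries, the highest value was so far from the others that Dixon's test for outliers passed its 95% limit. Chance alone gives about 1 in 20 such groups where values are normally distributed, which FPKM and groups with values of 0 are not, so the chance rate here is not known. Many of these segments had been named because 1 library raised them, so the number is a description.

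The sum of Ighv FPKM, 9781, and its share of all FPKM, 1.25%, both stood out in pericyte 4. Of the 22 pericyte segment values that did so, 15 were in this library, where the IgG constant regions had their highest share, and the cause was not tested. They were Ighv1-82 at 648.8 FPKM (others 60.40 to 81.56), Ighv2-3 at 153.3 FPKM (others 4.853 to 11.04), Ighv5-9-1 at 1313 FPKM (others 14.01 to 23.66), Ighv6-3 at 229.2 FPKM (others 34.17 to 38.75), Ighv7-3 at 802.5 FPKM (others 16.79 to 63.88), Ighv9-2 at 399.2 FPKM (others 3.609 to 6.314), Ighv10-1 at 520.0 FPKM (others 13.04 to 31.17) and Ighv14-4 at 250.3 FPKM (others 17.80 to 27.40). The remaining segments were Ighv1-50 at 438.7 FPKM (others 27.34 to 92.78), Ighv1-18 at 449.1 FPKM (others 34.98 to 39.83), Ighv8-5 at 399.9 FPKM (others 0 to 49.43), Ighv5-6 at 241.3 FPKM (others 12.35 to 35.13), Ighv14-2 at 98.03 FPKM (others 17.03 to 24.63), Ighv14-3 at 92.81 FPKM (others 5.084 to 17.03) and Ighv1-54 at 376.1 FPKM (others 16.14 to 20.94). Pericyte 1 stood out for Ighv5-9 at 210.4 FPKM (others 5.771 to 27.79) and Ighv1-58 at 117.9 FPKM (others 6.125 to 6.660). Pericyte 2 stood out for Ighv5-4 at 358.1 FPKM (others 49.88 to 82.38), Ighv1-42 at 127.0 FPKM (others 6.248 to 20.39) and Ighv1-14 at 95.47 FPKM (others 0 to 8.739). Pericyte 3 stood out for Ighv1-15 at 551.2 FPKM (others 29.29 to 70.55) and Ighv1-69 at 217.4 FPKM (others 18.38 to 35.78). Among SMCs, SMC 4 stood out for Ighv7-3 at 19.22 FPKM (others 0.3692 to 2.409), Ighv1-66 at 53.88 FPKM (others 0 to 0) and Ighv1-78 at 34.57 FPKM (others 0 to 2.196), and SMC 1 for Ighv1-82 at 40.26 FPKM (others 0 to 1.957).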

How the results depend on the processing

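The count of 63 segments higher in pericytes was 54 to 75 over these settings: 75 with a pseudocount of 0.1, 66 of 75 tested with the filter, 65 with TPM scaling, 63 with quantile scaling and 65 with an intensity trend, and 54 to 65 with each library left out. None was higher in SMCs under any of them, and 1 reached an unadjusted p of 0.05 in that direction without SMC 3 or without SMC 4. For the B cell list the count of 28 went from 24 to 30, and Cd81, close to the threshold, made 1 gene higher in SMCs with TPM or quantile scaling and without pericyte 2, SMC 3 or SMC 4. Of 27 named and called segments, 21 were called under all 14 alternatives. The other 6 were Ighv1-58, Ighv1-82, Ighv2-3, Ighv4-1, Ighv5-9 and Ighv5-9-1, with q up to 0.0950 when a library was left out, and 7 segments not called were called under some setting, Ighv7-3 under 6. The sign of Ighv1-83, whose means are nearly equal, turned with TPM scaling (0.011) and with some libraries left out (-0.20 to 0.20). The mean effective number of segments in pericytes, 33.8 ± 10.3, was 28.8 to 36.1 with a pericyte library left out and 20.4 as an inverse Simpson index, which weighs the leading segments more by construction. The number of segments above 0 in every pericyte library, 78, was 73 with values under 1 FPKM set to 0 and up to 83 with a library left out. The shares of the leading segment, of family 1 and of all Ighv segments moved by less than their SD over libraries. With a library left out this was fixed in advance, because leaving out 1 of 4 values cannot move their mean by an SD. The share of all Ighv segments did fall without pericyte 4, as given above.

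The replicate numbers were not taken to pair the libraries: same-numbered libraries deviated together with correlations of 0.0794 to 0.474 over 13612 genes, and 2 of 4 pericyte libraries correlated best with their own number. With the replicate block 59 segments and 27 genes of the B cell list were higher in pericytes, and 0 segments in SMCs. The block gave Ighv7-3 a q of 0.00276, which makes it a call in family 7. Calls were lost for Ighv5-9-1 (q = 0.0569), Ighv5-9 (q = 0.0556), Ighv1-82 (q = 0.0570), Ighv4-1 (q = 0.0525) and Ighv2-3 (q = 0.0568). SMC values rest on few fragments, so that segments listed at 0 there may be present below 1 fragment. Reads of near-identical segments cannot be assigned with certainty.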
